A study of Mus musculus with 16 samples.

Results

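Hox genes encode homeodomain transcription factors. The 39 Hox genes of the deposited count table were taken as all rows whose symbol is Hox, a cluster letter from a to d and a paralog number, out of 23284 gene symbols. Expression was measured by poly-A RNA sequencing of lumbar spinal cord from mice aged 150 days, with 4 animals per group. The cWT_SOD1 group is labelled Atg7 cWT; SOD1G93A, and the cKO_SOD1 group Atg7 cKO; SOD1G93A. The cKO group is Atg7 cKO and the cWT group Atg7 cWT, both labelled without SOD1G93A. Mice with SOD1G93A, a transgene for a mutant form of human superoxide dismutase, are a model of amyotrophic lateral sclerosis, and Atg7 encodes an enzyme needed to form autophagosomes. The labels do not spell out cKO and cWT and name no Cre driver. The series title places the inhibition of autophagy in motor neurons, which are few among the cells of a cord.

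Mammalian Hox genes lie in 4 clusters, named Hoxa to Hoxd, and genes with the same number in different clusters are paralogs. Within a cluster, genes with low numbers are used nearer the head and those with high numbers nearer the tail, so the set of Hox genes that a spinal neuron expresses reflects its level along the cord. Together with Pbx and Meis cofactors, Hox proteins set the identity of motor neuron columns and pools. Paralog 10 genes act in the lumbar motor neurons that innervate the hindlimb, paralogs 5 to 8 at forelimb levels, and paralog 9, above all Hoxc9, at thoracic levels.

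The deposited gene loci, in mm9, placed 11 Hoxa genes on chromosome 6 (chr6:52105366-52210874), 10 Hoxb genes on chromosome 11 (chr11:96055675-96229567), 9 Hoxc genes on chromosome 15 (chr15:102751562-102867283) and 9 Hoxd genes on chromosome 2 (chr2:74506367-74603199). The clusters spanned from 96.8 kb (Hoxd) to 174 kb (Hoxb). The promoters of 4 genes are shown because they belong to the member with the highest level (Hoxb8), a lumbar paralog 10 gene (Hoxd10), the member with the largest fall (Hoxd1) and a member that did not fall (Hoxa2). Each window runs from 250 bases before to 50 bases after a transcript start of RefSeq on GRCm38.p6, and capitals mark a match to the Pbx-Hox motif TGATNNAT on either strand. Those genome positions are of another build than the loci above.
Hoxb8 promoter, chr11:96281655-96281954, plus strand: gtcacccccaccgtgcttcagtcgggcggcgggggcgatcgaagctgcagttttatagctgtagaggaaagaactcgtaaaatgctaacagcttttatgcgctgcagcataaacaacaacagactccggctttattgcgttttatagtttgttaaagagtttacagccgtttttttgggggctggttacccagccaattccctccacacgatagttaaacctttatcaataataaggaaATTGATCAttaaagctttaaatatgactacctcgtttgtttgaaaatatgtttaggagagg
Hoxd10 promoter, chr2:74691641-74691940, plus strand: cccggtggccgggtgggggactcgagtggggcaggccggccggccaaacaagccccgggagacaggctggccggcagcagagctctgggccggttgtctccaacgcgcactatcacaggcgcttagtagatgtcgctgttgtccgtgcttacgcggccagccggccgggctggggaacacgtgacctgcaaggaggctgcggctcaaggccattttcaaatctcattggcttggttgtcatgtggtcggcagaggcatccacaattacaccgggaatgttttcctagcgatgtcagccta
Hoxd1 promoter, chr2:74762730-74763029, plus strand: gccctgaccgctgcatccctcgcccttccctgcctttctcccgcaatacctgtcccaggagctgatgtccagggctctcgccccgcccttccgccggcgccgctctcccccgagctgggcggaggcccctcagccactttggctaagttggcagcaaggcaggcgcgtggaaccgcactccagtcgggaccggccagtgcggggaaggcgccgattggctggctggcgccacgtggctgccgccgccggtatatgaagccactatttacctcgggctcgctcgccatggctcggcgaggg
Hoxa2 promoter, chr6:52164782-52165081, minus strand: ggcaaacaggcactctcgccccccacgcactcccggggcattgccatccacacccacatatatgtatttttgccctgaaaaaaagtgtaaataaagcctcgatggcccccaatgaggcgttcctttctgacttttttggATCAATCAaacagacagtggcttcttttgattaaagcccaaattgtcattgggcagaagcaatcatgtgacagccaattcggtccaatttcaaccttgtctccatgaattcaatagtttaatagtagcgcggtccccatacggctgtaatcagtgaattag

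RefSeq windows were matched to 22 of the 39 Hox genes, 24 windows in all. The Pbx-Hox letters were in 4 of the 24 windows (16.7%), those of Hoxa2, Hoxb1, Hoxb8 and Hoxd11, beside 8.85% of 32851 windows of all genes. The letters TTTATG, a motif of the caudal homeobox factors Cdx, were on either strand in 5 windows (20.8%), those of Hoxa7, Hoxb8, Hoxd3, Hoxd4 and Hoxd11, beside 11.9% of all windows. In these 24 windows no TTTATG match overlapped a Pbx-Hox match. The median number of CpG was 14.5 in Hox windows and 7 in all windows. Of the 4 genes with the Pbx-Hox letters, Hoxb8 and Hoxd11 fell with the transgene on the cWT background, Hoxa2 did not pass the test and Hoxb1 was too low to test. A match is a run of letters and was not tested for binding.

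Total counts ran from 14989026 to 20892530 per library, 15426 genes had enough counts to test, and counts of sex-linked genes gave 2 males and 2 females in every group. Over all genes, cWT_SOD1 replicate 1 stood apart from replicates 2 and 3 of its group, with a mean chi-square per gene of 35.9 and 38.9, beside 6.67 between replicates 2 and 3 and 14.8 against replicate 4. Without it, 23 Hox genes were called in cWT_SOD1 against cWT, 23 in cKO_SOD1 against cWT_SOD1 and 19 in the interaction, where all libraries gave 25, 22 and 22. Atg7 did not pass the test between cKO and cWT, at −0.17 on the log2 scale (SE 0.12, adjusted p = 0.9995), and a whole-cord count cannot check a deletion limited to motor neurons. Mouse Sod1 did not pass between cWT_SOD1 and cWT (−0.09, adjusted p = 0.222), and the human transgene was not analysed here. Levels below are FPKM (fragments per kilobase of transcript, scaled to library size) where genes are compared, and otherwise CPM (counts scaled to TMM-adjusted library sizes, as in the plots), each as mean ± SD over 4 animals. The SE of a log2 fold change is its size divided by the square root of its F statistic. A change counted as passed at an adjusted p under 0.05 in edgeR's quasi-likelihood test, with Benjamini-Hochberg adjustment over all genes.

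Hox levels were highest in the middle and caudal paralogs and fell off to either side. Paralogs 8 and 9 together held 41.7% to 45.6% of the summed Hox FPKM of a library, while paralog 13 genes were at or close to 0. The highest member in cWT cords was Hoxb8, a gene of trunk and dorsal horn neurons, at 79.7 ± 3.79 FPKM. Hoxc10 (48.97 ± 1.16 FPKM) and Hoxb9 (46.2 ± 2.92 FPKM) came next and differed from each other by no more than the sum of their SDs. Hoxb6 (34.7 ± 0.384 FPKM) and Hoxd8 (32.8 ± 1.44 FPKM) followed, each apart from its neighbours. Hoxa10, a lumbar paralog, stood at 25.3 ± 0.809 FPKM, within the spread of the next in order, Hoxb7.

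The middle of the order was less certain. In cWT cords, Hoxb7 (22.5 ± 2.26 FPKM), Hoxb5 (21.97 ± 1.13 FPKM), Hoxd10 (21.7 ± 2.54 FPKM) and Hoxc8 (21.7 ± 1.29 FPKM) could not be ordered. Hoxd9 stood at 18.6 ± 0.858, Hoxa5 at 14.8 ± 0.265, Hoxa7 at 13.005 ± 0.773 and Hoxa9 at 12.8 ± 0.518 FPKM, of which Hoxa7 and Hoxa9 lay within each other's spread. Hoxc9, the thoracic determinant that represses forelimb programmes, was well below its paralogs Hoxb9, Hoxd9 and Hoxa9, at 6.81 ± 0.418 FPKM. At the rostral end, the hindbrain gene Hoxa2 stood at 2.09 ± 0.379 FPKM and Hoxd1 at 0.774 ± 0.288 FPKM.

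Paralog 11 genes, which act caudal to the paralog 10 domain, were low in cWT cords, with Hoxa11 at 3.86 ± 1.01, Hoxd11 at 2.51 ± 1.37 and Hoxc11 at 1.19 ± 0.418 FPKM. Of the 6 genes of paralogs 12 and 13, which pattern the tail end of the body and the distal limb, none had enough counts to test. Hoxa13 and Hoxc13 had 0 counts in all 16 libraries, which allows up to 0.0102 CPM over the pooled total of 294206645. Hoxb13 had 2 counts in all, Hoxc12 1 and Hoxd12 6. Hoxb1, a hindbrain gene, was the other untested member, with 14 counts.

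**Figure D1:**
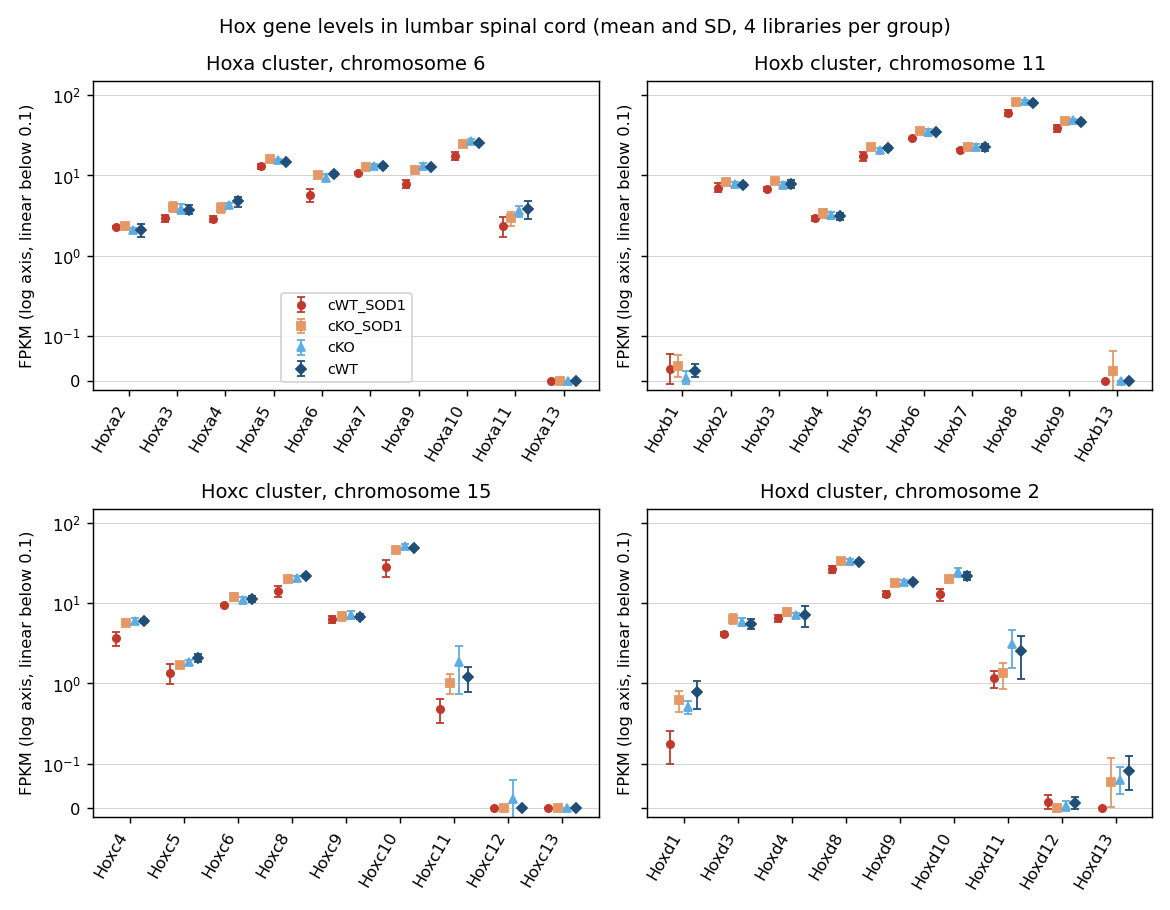
Mean FPKM (log axis, linear below 0.1) with SD over 4 libraries for Hox genes, one panel per cluster, with genes in order of paralog number and the groups cWT_SOD1, cKO_SOD1, cKO and cWT from left to right within each gene. Levels are highest at paralogs 8 to 10 and near 0 at paralogs 12 and 13, and most cWT_SOD1 points sit below the other 3.

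The transgene on the cWT background was compared first, cWT_SOD1 against cWT. Hox genes were lower in cWT_SOD1 cords across all 4 clusters, and none was higher. Of the 32 members tested, 25 fell and 0 rose, beside 33.1% of all 15426 genes tested that fell and 33.2% that rose (66.3% in either direction). The median log2 fold change of the 32 was −0.41, a fall of 1.33-fold, beside 0.01 over all genes, and the fold changes of 31 were below 0. In 21 of the 32 the 4 cWT_SOD1 libraries all lay below the 4 cWT libraries, beside 28.9% of all genes, and in 0 they all lay above, beside 27.6% of all genes. Summed over the 39 genes, Hox CPM were 718 ± 43.4 in cWT_SOD1, 72.8% of the 987 ± 15.2 in cWT. These are bulk cords, and CPM are relative to all counts of a library. Fewer cells that express a gene, less of its RNA per cell and more RNA from other cells therefore cannot be told apart.

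The falls were of moderate size in the members that carry most of the Hox RNA. Hoxb8 read 157, 150.0, 134 and 157 CPM in cWT_SOD1 and 207, 192, 215 and 208 CPM in cWT, with no overlap between the groups. Its log2 fold change was −0.46 (SE 0.06, adjusted p = 6.93e-06). Its neighbour Hoxb9, a thoracic paralog, read 104, 100.2, 87.9 and 93.2 CPM in cWT_SOD1 and 114, 112, 127 and 125 CPM in cWT. All cWT_SOD1 values were again the lower ones, with a log2 change of −0.31 (SE 0.06, adjusted p = 1.98e-04). Hoxb6, which acts at brachial levels, read 32.5, 33.5, 34.2 and 34.3 CPM in cWT_SOD1 and 41.5, 40.7, 41.7 and 41.9 CPM in cWT, both sets close together (−0.30, SE 0.07, adjusted p = 0.00133). Within the Hoxb cluster 5 of 8 tested genes fell, with the smallest median of the 4 clusters (−0.27), and Hoxb2, Hoxb4 and Hoxb7 did not pass.

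In the Hoxa cluster 8 of 10 tested genes fell, with a median of −0.47. Hoxa9 had the smallest p of all 32 members, at 20.98, 18.7, 17.3 and 17.6 CPM in cWT_SOD1 and 32.7, 30.3, 29.999 and 30.1 CPM in cWT. Its log2 fold change was −0.72 (SE 0.07, adjusted p = 5.10e-08). The lumbar gene Hoxa10 read 42.3, 37.8, 36.9 and 34.7 CPM in cWT_SOD1 and 54.3, 56.7, 56.7 and 55.3 CPM in cWT, a log2 change of −0.55 (SE 0.06, adjusted p = 4.32e-07), and its groups lay far apart relative to their spread. Hoxa6 read 4.68, 4.70, 3.68 and 4.71 CPM in cWT_SOD1 and 6.91, 7.48, 6.83 and 7.59 CPM in cWT (−0.70, SE 0.11, adjusted p = 2.26e-05). Falls were smaller in Hoxa5, which is needed for phrenic motor neurons, at 23.3, 23.2, 21.01 and 22.2 CPM in cWT_SOD1 and 26.4, 27.2, 26.9 and 26.6 CPM in cWT (−0.26, SE 0.06, adjusted p = 5.57e-04). Hoxa7 read 19.3, 20.2, 18.9 and 20.4 CPM in cWT_SOD1 and 26.4, 23.3, 23.1 and 24.7 CPM in cWT (−0.31, SE 0.06, adjusted p = 4.10e-04), again without overlap. The span of Hoxa3 overlaps those of Hoxa4, Hoxa5 and Hoxa6 in the deposited loci, so Hoxa3 may share reads with each of them.

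The Hoxc cluster had the largest median, −0.68, with 6 of 7 tested genes lower. Hoxc10, a determinant of lumbar motor neurons, read 60.96, 39.4, 39.03 and 50.9 CPM in cWT_SOD1 and 86.7, 85.8, 87.4 and 83.9 CPM in cWT. Within cWT_SOD1 it was highest in replicate 1, the library that stood apart over all genes, and it hardly spread within cWT, and its log2 fold change was −0.86 (SE 0.10, adjusted p = 1.25e-06). Hoxc8, which specifies forelimb motor pools, read 34.9, 29.7, 25.3 and 31.4 CPM in cWT_SOD1 and 52.3, 46.1, 46.3 and 50.2 CPM in cWT (−0.68, SE 0.08, adjusted p = 9.41e-07). Hoxc6 read 13.1, 13.2, 13.8 and 14.2 CPM in cWT_SOD1 and 18.8, 16.4, 16.3 and 15.7 CPM in cWT (−0.31, SE 0.09, adjusted p = 0.00510), a smaller difference that still left a gap between the groups. Hoxc9 was the cluster's tested member that did not pass (−0.17, SE 0.10, adjusted p = 0.150).

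In the Hoxd cluster 6 of 7 tested genes fell, with a median of −0.56. Hoxd4 did not pass (−0.18, SE 0.14, adjusted p = 0.277). The spans of Hoxd3 and Hoxd4 overlap, so these genes may share reads too. The lumbar gene Hoxd10 read 24.4, 17.6, 18.5 and 21.9 CPM in cWT_SOD1 and 30.7, 40.4, 38.4 and 36.8 CPM in cWT (−0.83, SE 0.12, adjusted p = 9.95e-06). Hoxd9 read 26.8, 23.5, 25.4 and 22.9 CPM in cWT_SOD1 and 37.9, 35.3, 36.9 and 34.8 CPM in cWT (−0.56, SE 0.06, adjusted p = 3.69e-07), and Hoxd8 38.3, 34.8, 31.9 and 36.6 CPM in cWT_SOD1 and 42.6, 43.8, 46.8 and 43.98 CPM in cWT (−0.32, SE 0.06, adjusted p = 1.28e-04). In all 3 the highest cWT_SOD1 library was below the lowest cWT library. The largest fall of all members was in Hoxd1, known in mice for its role in nociceptor wiring, at 0.308, 0.224, 0.227 and 0.464 CPM in cWT_SOD1 and 1.59, 0.971, 1.83 and 0.831 CPM in cWT. That was 4.29-fold lower (−2.10, SE 0.35, adjusted p = 4.20e-05) on counts of 4 to 7 in cWT_SOD1 and 15 to 33 in cWT per library.

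**Figure D2:**
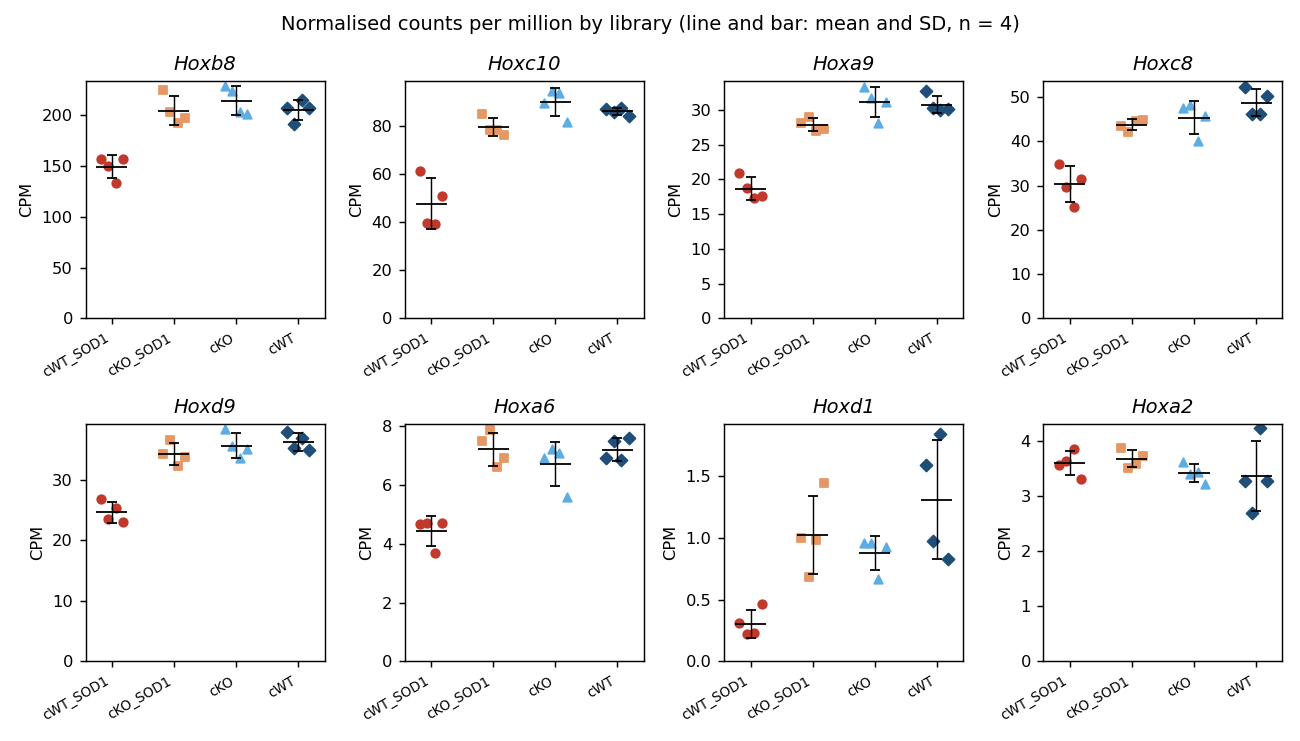
TMM-scaled CPM in each library (points), with group means (lines) and SD (bars) for 8 Hox genes, groups in the order cWT_SOD1, cKO_SOD1, cKO and cWT and each axis starting at 0. In all panels but Hoxa2 the 4 cWT_SOD1 points lie below the points of the other 3 groups.

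By paralog number, the median falls on the cWT background were larger for paralogs 10 and 11 than for paralogs 2 to 9. The median log2 fold change was −0.02 for paralog 2, between −0.23 and −0.47 for paralogs 3 to 9, −0.83 for paralog 10 and −0.999 for paralog 11. Hoxd1, at the other end of its cluster, did not follow this order, since its fall was the largest of all. Some other members of low or middle number, such as Hoxc4 (−0.81), Hoxa4 (−0.76), Hoxa9 (−0.72) and Hoxa6 (−0.70), fell by more than Hoxa10 (−0.55). Hoxc10 (−0.86) and Hoxd10 (−0.83) fell by more than each of these. All 3 paralog 10 genes and all 3 paralog 11 genes fell. Expressed as a share of summed Hox FPKM, paralog 10 took 13.9% to 17.5% in cWT_SOD1 libraries and 18.4% to 19.9% in cWT libraries, and these ranges did not overlap. The order by paralog number is a description of 32 genes and was not tested.

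The hindbrain gene Hoxa2 did not pass and was the one tested member with a positive fold change, at 3.57, 3.63, 3.85 and 3.32 CPM in cWT_SOD1 and 3.28, 2.68, 4.22 and 3.27 CPM in cWT (0.10, SE 0.13, adjusted p = 0.516). Hoxb7 did not pass either (−0.15, SE 0.08, adjusted p = 0.110), but did without cWT replicate 2 (−0.21, adjusted p = 0.0275). Hoxd4 passed without cWT replicate 4 (−0.32, adjusted p = 0.0293). Hoxb3, a hindbrain and cervical gene, fell (−0.24, SE 0.08, adjusted p = 0.0172), but lost its call without cWT_SOD1 replicate 1 (−0.19, adjusted p = 0.0638) or without cWT replicate 1 (−0.19, adjusted p = 0.0678). Hoxa3 fell as well (−0.39, SE 0.13, adjusted p = 0.0121), with overlapping groups.

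**Figure D3:**
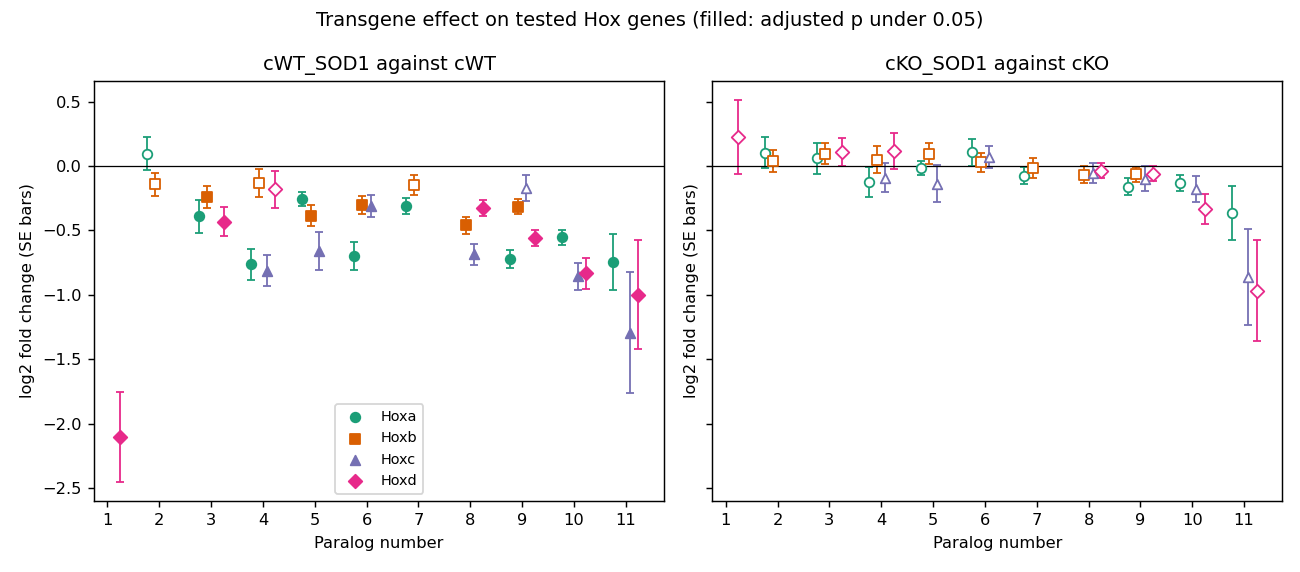
Log2 fold change with SE for tested Hox genes against paralog number, cWT_SOD1 against cWT on the left and cKO_SOD1 against cKO on the right, coloured by cluster, filled where the adjusted p was under 0.05. On the left 25 points are filled and all of these lie below 0, and on the right no point is filled.

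The same transgene on the cKO background, cKO_SOD1 against cKO, gave Hox levels close to each other. None of the 32 members passed edgeR's test, beside 7.28% of all genes (4.8% higher and 2.48% lower), and 5 had an unadjusted p under 0.05, a smaller share than the 3268 of 15426 genes that did. The median log2 fold change was −0.06, beside a median close to 0 over all genes, and the values ran from −0.97 (Hoxd11) to 0.23 (Hoxd1). The summed Hox CPM were 965 ± 51.9 in cKO_SOD1 and 1009 ± 47.2 in cKO. Hoxb8, the most abundant member, read 225, 204, 193 and 198 CPM in cKO_SOD1 and 229, 224, 204 and 201 CPM in cKO, which overlap (−0.07, SE 0.06, adjusted p = 0.593). Hoxc8 read 43.6, 42.1, 44.5 and 44.8 CPM in cKO_SOD1 and 47.5, 48.1, 40.1 and 45.7 CPM in cKO (−0.05, SE 0.08, adjusted p = 0.752), and Hoxd9 34.2, 36.6, 32.2 and 33.8 CPM in cKO_SOD1 and 38.4, 35.5, 33.5 and 35.1 CPM in cKO (−0.06, SE 0.06, adjusted p = 0.606). In both genes the groups overlapped, as they did in all 32 members, beside 9.91% of all genes whose groups did not overlap in the higher and 1697 of 15426 in the lower direction.

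The 5 members with an unadjusted p under 0.05, a count below the share over all genes, were Hoxa9, Hoxa10, Hoxd10, Hoxc11 and Hoxd11, with negative fold changes in cKO_SOD1. Hoxd10 had the smallest p of the 32, at 36.4, 33.8, 30.7 and 28.9 CPM in cKO_SOD1 and 39.2, 42.7, 47.9 and 33.6 CPM in cKO. Its log2 fold change was −0.33 (SE 0.12, adjusted p = 0.0989), and −0.42 without cKO replicate 4, the lowest of its group (adjusted p = 0.0378). When the 8 libraries of this comparison were fitted alone, Hoxd10 (−0.33, adjusted p = 0.0443) and Hoxc10 (−0.17, adjusted p = 0.0392) passed. That fit called more genes of all kinds, 1235 higher and 1245 lower of 15058 tested. Hoxa9 read 28.2, 29.01, 26.9 and 27.3 CPM in cKO_SOD1 and 33.3, 31.7, 28.2 and 31.2 CPM in cKO (−0.16, SE 0.06, adjusted p = 0.157). Hoxa10 read 55.9, 55.5, 53.3 and 51.1 CPM in cKO_SOD1 and 62.2, 58.7, 62.1 and 53.4 CPM in cKO (−0.13, SE 0.06, adjusted p = 0.216). The share of paralog 10 in summed Hox FPKM was 17.8% to 18.5% in cKO_SOD1 libraries and 19.0% to 21.6% in cKO libraries. Again these ranges did not overlap. The share of paralogs 1 and 2 only just missed overlapping, at 2.240% to 2.392% in cKO_SOD1 and 1.961% to 2.237% in cKO. The shares of paralog 11 and of paralogs 8 and 9 overlapped.

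Between cKO and cWT, without the transgene, no Hox gene passed edgeR's test and none had an unadjusted p under 0.05. Of all 15426 genes 0.0259% passed (0.00648% higher and 0.0194% lower) and 543 had an unadjusted p under 0.05. No member had groups that did not overlap, beside 1.55% of all genes in the higher and 1.93% in the lower direction. The median log2 fold change was 0.01 and the summed Hox CPM differed by less than the spread between animals, at 1009 ± 47.2 in cKO and 987 ± 15.2 in cWT. Hoxc10 illustrates this, at 89.5, 94.3, 93.5 and 81.5 CPM in cKO and 86.7, 85.8, 87.4 and 83.9 CPM in cWT (0.06, SE 0.10, adjusted p = 0.9995). The largest difference was in Hoxc11 (0.63, SE 0.37, adjusted p = 0.9995), a gene of few counts.

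With the transgene, cKO_SOD1 cords had higher Hox levels than cWT_SOD1 cords. Of the 32 members 22 were higher and 0 lower, beside 29.1% of all genes that were higher (58.2% changed in either direction), and the median was 0.36, beside −0.01 over all genes. In 24 members all 4 cKO_SOD1 libraries lay above all 4 cWT_SOD1 libraries, beside 25.0% of all genes. Hoxc10 read 84.95, 78.3, 78.1 and 76.1 CPM in cKO_SOD1 and 60.96, 39.4, 39.03 and 50.9 CPM in cWT_SOD1, 1.67-fold higher (0.74, SE 0.10, adjusted p = 1.04e-05). Hoxa9 read 28.2, 29.01, 26.9 and 27.3 CPM in cKO_SOD1 and 20.98, 18.7, 17.3 and 17.6 CPM in cWT_SOD1 (0.58, SE 0.07, adjusted p = 1.40e-06). The log2 fold change was 0.51 (SE 0.06, adjusted p = 2.25e-06) for Hoxa10, 0.47 (SE 0.06, adjusted p = 4.36e-06) for Hoxd9 and 0.45 (SE 0.06, adjusted p = 1.19e-05) for Hoxb8. Each of these genes was higher in 4 of 4 cKO_SOD1 libraries than in any cWT_SOD1 library. Hoxd1 was 3.37-fold higher, at 0.995, 0.681, 0.978 and 1.44 CPM in cKO_SOD1 and 0.308, 0.224, 0.227 and 0.464 CPM in cWT_SOD1 (1.75, SE 0.36, adjusted p = 4.48e-04).

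Hoxb2, a hindbrain paralog, was higher in cKO_SOD1 at 0.24 (SE 0.09, adjusted p = 0.0256). It lost the call without cWT_SOD1 replicate 2 (0.15, adjusted p = 0.118), cKO_SOD1 replicate 1 (0.21, adjusted p = 0.0781) or cKO_SOD1 replicate 2 (0.22, adjusted p = 0.0674). Hoxc11 did not pass (1.06, SE 0.48, adjusted p = 0.0662), although its groups did not overlap. It passed without cKO_SOD1 replicate 4 (1.23, adjusted p = 0.0456), cKO replicate 3 (1.06, adjusted p = 0.0257) or cKO replicate 4 (1.06, adjusted p = 0.0322). Hoxc5, Hoxb4 and Hoxd4 did not pass, and each passed without 1 library. For Hoxc5 this was cWT_SOD1 replicate 1 (0.40, adjusted p = 0.0398), for Hoxb4 cKO_SOD1 replicate 4 (0.28, adjusted p = 0.0327) and for Hoxd4 cWT replicate 4 (0.27, adjusted p = 0.0489).

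The difference between the transgene effects on the cKO and cWT backgrounds was tested as an interaction, where a positive value means a smaller fall, or a rise, with cKO. It passed in 22 of 32 members, all positive, beside 23.2% of all genes with a positive and 21.8% with a negative interaction (45.0% in all). The median was 0.39, beside a median close to 0 over all genes. The smallest p belonged to Hoxa9, whose transgene effect was −0.16 on the cKO background and −0.72 on the cWT background, an interaction of 0.56 (SE 0.09, adjusted p = 1.27e-04). For Hoxd9 the effects were −0.06 with cKO and −0.56 with cWT (0.50, SE 0.09, adjusted p = 1.72e-04), and for Hoxc8 −0.05 with cKO and −0.68 with cWT (0.63, SE 0.11, adjusted p = 2.56e-04). The cWT_SOD1 libraries enter this test, the cWT_SOD1 against cWT test and the cKO_SOD1 against cWT_SOD1 test, so these counts are not independent.

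Hoxa6 read 7.49, 7.86, 6.61 and 6.91 CPM in cKO_SOD1 and 6.90, 7.22, 7.09 and 5.61 CPM in cKO, with an interaction of 0.81 (SE 0.15, adjusted p = 3.64e-04). Hoxd1 had the largest interaction, 2.33 (SE 0.46, adjusted p = 5.50e-04), at 0.995, 0.681, 0.978 and 1.44 CPM in cKO_SOD1 and 0.955, 0.955, 0.665 and 0.926 CPM in cKO. Hoxa10 had 0.42 (SE 0.09, adjusted p = 7.49e-04). By cluster, 7 of 10 Hoxa, 5 of 8 Hoxb, 5 of 7 Hoxc and 5 of 7 Hoxd genes passed. By paralog, all tested members of paralogs 3, 5, 6, 8 and 10 passed, and none of paralogs 2 and 11. The calls of Hoxa3, Hoxa7, Hoxb3, Hoxb9, Hoxc5 and Hoxd10 were lost in some fits without a single library, at adjusted p from 0.0501 to 0.101.

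Paralog 11 genes varied most from library to library, beside Hoxd1. Counting noise, which is larger in genes of few counts, is part of this spread and was not separated from differences between animals. Counts per library ran from 4 to 52 for Hoxc11 and from 2358 to 4318 for Hoxb8. The median over groups of the coefficient of variation was 45.9% for Hoxd11, 31.97% for Hoxc11 and 24.2% for Hoxa11, against 13.02% for Hoxd10 and 6.76% for Hoxb8. Hoxd11 read 1.41, 1.96, 1.19 and 1.79 CPM in cWT_SOD1, 2.11, 3.19, 1.82 and 1.14 in cKO_SOD1, 2.65, 4.67, 6.82 and 2.05 in cKO and 1.48, 5.31, 3.39 and 2.603 in cWT. Hoxc11 read 0.369, 0.503, 0.227 and 0.530 CPM in cWT_SOD1, 0.937, 1.15, 0.792 and 0.547 in cKO_SOD1, 1.11, 1.64, 2.88 and 0.634 in cKO and 0.717, 1.37, 0.833 and 1.11 in cWT. In cKO_SOD1 the highest library was replicate 2 for both genes, in cKO it was replicate 3 and in cWT replicate 2, while in cWT_SOD1 the highest library was replicate 2 for Hoxd11 and replicate 4 for Hoxc11. In cKO the lowest library was replicate 4 for both, with Hoxd11 3.33-fold and Hoxc11 4.55-fold below the highest.

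Hoxa11 read 5.04, 3.02, 4.93 and 3.25 CPM in cWT_SOD1, 5.85, 6.02, 4.75 and 3.43 in cKO_SOD1, 6.37, 5.78, 8.04 and 5.61 in cKO and 5.02, 8.22, 8.28 and 5.76 in cWT. Replicate 3 of cKO and replicate 2 of cKO_SOD1 were its highest libraries in those groups too, and its reads may be shared with the antisense gene Hoxa11as, whose span overlaps. Between cWT_SOD1 and cWT the log2 fold change was −0.74 (SE 0.22, adjusted p = 0.00634) for Hoxa11, −1.29 (SE 0.47, adjusted p = 0.0221) for Hoxc11 and −0.999 (SE 0.42, adjusted p = 0.0470) for Hoxd11. The groups overlapped for Hoxa11 and Hoxd11. Hoxc11 lost its call without cWT_SOD1 replicate 3 (−1.09, adjusted p = 0.0688) or cWT replicate 2 (−1.12, adjusted p = 0.0654).

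Hoxd11 lost its call without any 1 of the 4 cWT_SOD1 libraries, cWT replicates 2, 3 and 4, cKO_SOD1 replicates 1 and 3 or cKO replicate 2 (adjusted p from 0.05001 to 0.200). Its log2 fold change was −0.65 without cWT replicate 2. On the cKO background the effects were −0.37 (SE 0.21, adjusted p = 0.340) for Hoxa11, −0.86 (SE 0.37, adjusted p = 0.193) for Hoxc11 and −0.97 (SE 0.39, adjusted p = 0.160) for Hoxd11, and none passed. The interactions of the 3 genes were 0.38, 0.43 and 0.03 in that order (adjusted p of 0.335, 0.593 and 0.970). Their SEs of 0.30 to 0.60 overlap the sizes called in other members, from 0.24 in Hoxa7 upward, so interactions like those of most members were not detectable here.

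**Figure D4:**
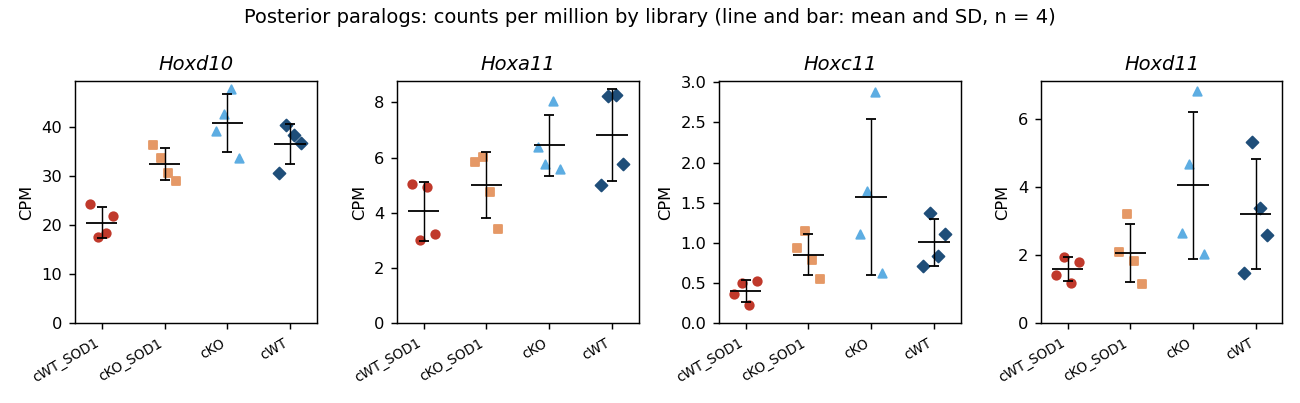
TMM-scaled CPM in each library (points), with group means (lines) and SD (bars), for Hoxd10 and the 3 paralog 11 genes, groups in the order cWT_SOD1, cKO_SOD1, cKO and cWT. Hoxd11 and Hoxc11 spread from 2.05 to 6.82 and from 0.634 to 2.88 within the cKO group alone.

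Hoxd13, which patterns the distal limb and the caudal end, was below the filter on low counts. It had 0 counts in each of the 4 cWT_SOD1 libraries, 4, 5, 1 and 0 in cKO_SOD1, 4, 4, 3 and 1 in cKO and 2, 3, 6 and 3 in cWT. With cWT_SOD1 set to a group floor of 3 counts, the observed level was 4.27-fold above that floor in cWT and 2.87-fold above it in cKO_SOD1. With no filter on low counts edgeR called it lower in cWT_SOD1 than in cWT (adjusted p = 0.00519). The difference rests on 14 counts in cWT and 10 in cKO_SOD1. The floor covers counting error in cWT_SOD1 only, not that of the other groups or the spread between animals.

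Genes for the cofactors of Hox proteins differed among themselves. Of 9 tested genes of the TALE families Pbx, Meis and Pknox, 4 fell and 1 rose in cWT_SOD1 against cWT. Their median was −0.17. The share that fell was not far from the 33.1% of all genes that fell, and 33.2% of all genes rose. Meis2, a cofactor of Hox proteins, averaged 44.3 ± 6.46 CPM in cWT_SOD1 and 83.1 ± 6.66 CPM in cWT (−0.91, SE 0.08, adjusted p = 4.06e-08), and Pbx3 24.0 ± 4.47 CPM in cWT_SOD1 and 42.3 ± 3.06 CPM in cWT (−0.82, SE 0.10, adjusted p = 1.03e-06). Pknox2 fell by less (−0.28, SE 0.06, adjusted p = 3.74e-04). None of the 9 passed in cKO_SOD1 against cKO, where Meis2 averaged 80.2 ± 3.01 CPM in cKO_SOD1 and 84.3 ± 4.88 CPM in cKO, and 3 passed with a positive and 1 with a negative interaction, beside 23.2% and 21.8% of all genes, Meis2 at 0.83 (SE 0.11, adjusted p = 2.75e-05) among the positive ones.

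Of 12 noncoding and other transcripts in or beside the clusters, 7 were tested, of which 2 were lower and 0 higher in cWT_SOD1 against cWT, with a median of −0.43. That share is no larger than the 33.1% of all genes that fell. Mira, a noncoding RNA of the Hoxa cluster, averaged 22.6 ± 2.27 CPM in cWT_SOD1 and 30.4 ± 2.09 CPM in cWT (−0.43, SE 0.07, adjusted p = 4.97e-05). Gm53, whose span lies in the Hoxb cluster, averaged 6.43 ± 0.454 CPM in cWT_SOD1 and 9.65 ± 1.14 CPM in cWT (−0.59, SE 0.10, adjusted p = 3.93e-05). Mira and Gm53 also passed in the interaction. Of 22 tested genes flanking the clusters, 6 rose and 10 fell, with a median of −0.13, beside 33.2% and 33.1% of all genes. Among them, Skap2, 143 kb from the Hoxa cluster, rose (1.19, SE 0.06, adjusted p = 7.04e-11), and Lnp, 89.4 kb from the Hoxd cluster, fell (−0.79, SE 0.08, adjusted p = 1.27e-07). Evx1, a homeobox gene of ventral interneurons 52.6 kb from the Hoxa cluster, averaged 0.317 ± 0.241 CPM in cWT_SOD1 and 1.20 ± 0.120 CPM in cWT, with an interaction of 2.20 (SE 0.42, adjusted p = 4.28e-04).

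Known regulators of Hox genes were described for their own levels only. Of 11 tested genes of the Cdx, retinoid and Gdf11 axis, 5 rose and 1 fell in cWT_SOD1 against cWT (33.2% and 33.1% of all genes), at a median of 0.10, with the TGF-beta receptor Tgfbr1 at 2.24 (SE 0.12, adjusted p = 1.33e-10) and the retinoic acid degrading enzyme Cyp26b1 at 1.36 (SE 0.21, adjusted p = 1.48e-05). The caudal factors Cdx1, Cdx2 and Cdx4, which set Hox domains in the embryo, had 2, 0 and 4 counts over all 16 libraries. Of 22 polycomb and trithorax genes, 5 rose and 8 fell, shares near those of all genes, at a median of 0.00, with Ezh2, a histone methyltransferase, at 0.80 (SE 0.13, adjusted p = 2.34e-05).

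Markers of neurons and of other cells moved in cWT_SOD1 against cWT, as the Hox genes did, and some also moved in cKO_SOD1 against cKO, where no Hox gene passed. Over all genes, 33.2% rose and 33.1% fell in cWT_SOD1 against cWT, and 4.8% rose and 2.48% fell in cKO_SOD1 against cKO. All 12 pan-neuronal markers fell in cWT_SOD1 against cWT and 6 in cKO_SOD1 against cKO, with summed CPM of 4424 to 6515 in cWT_SOD1, 8760 to 9455 in cKO_SOD1, 11965 to 12454 in cKO and 12568 to 13253 in cWT. The Hox sum stood at 72.8% of its cWT mean in cWT_SOD1, where the pan-neuronal sum stood at 41.3%, the spinal interneuron sum at 51.1% and the motor neuron sum at 34.1%. In cKO_SOD1 the Hox sum stood at 97.8% of its cWT mean, the pan-neuronal sum at 70.7%, the interneuron sum at 94.4% and the motor neuron sum at 39.1%. Set against the pan-neuronal sum, the Hox sum was 13.7% ± 2.01 in cWT_SOD1, 10.6% ± 0.586 in cKO_SOD1, 8.24% ± 0.304 in cKO and 7.63% ± 0.278 in cWT (SD, n = 4 each). Of 10 microglial markers, 10 rose in cWT_SOD1 against cWT and 8 in cKO_SOD1 against cKO, with summed CPM of 2069 to 3206 in cWT_SOD1, 743 to 803 in cKO_SOD1, 366 to 499 in cKO and 374 to 423 in cWT. The part of any of these in the Hox results was not tested.

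Among 14 tested spinal interneuron markers, 12 were lower and 0 higher in cWT_SOD1 against cWT, none was called in cKO_SOD1 against cKO, 12 were higher in cKO_SOD1 against cWT_SOD1 and 10 had a positive interaction. Their summed CPM were 623 to 920 in cWT_SOD1, 1350 to 1469 in cKO_SOD1, 1482 to 1582 in cKO and 1443 to 1530 in cWT. Over all genes, 33.1% were lower in cWT_SOD1 against cWT and 2.48% in cKO_SOD1 against cKO. In cKO_SOD1 against cWT_SOD1 29.1% of all genes were higher, and 23.2% had a positive interaction. Within cWT_SOD1, replicate 1 had both the highest Hox sum (769) and the highest interneuron sum (920), and replicate 3 the lowest of both (664 and 623). The pan-neuronal sum was also highest in replicate 1 (6515) and lowest in replicate 3 (4424), and the microglial sum was lowest in replicate 1 (2069). The other groups did not all share this order. In cKO_SOD1 the highest Hox sum was in replicate 1 (1037) and the highest interneuron sum in replicate 2 (1469). In cWT these were in replicate 3 (1008) and replicate 4 (1530), and in cKO both were in replicate 2 (1054 and 1582). Of 12 tested motor neuron markers, 11 fell in cWT_SOD1 against cWT and 10 in cKO_SOD1 against cKO, with summed CPM of 205 to 262 in cKO_SOD1 and 472 to 542 in cKO. Whether the Hox reads came from interneurons, motor neurons or other cells was not tested, and bulk counts do not assign them.

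Markers of the remaining types gave these counts in cWT_SOD1 against cWT, where 33.2% of all genes were higher and 33.1% lower. Several of the counts are near those shares. Astrocyte markers had 7 of 10 higher and 1 lower, oligodendrocyte 2 higher and 5 lower of 11, and endothelial 3 higher and 1 lower of 9. Nerve root and ganglion markers had 4 higher and 1 lower of 8 tested, meningeal markers 6 higher and 0 lower of 9, ependymal markers 3 higher and 0 lower of 6, and other leukocytes 1 higher and 0 lower of 3 tested. Of 12 forebrain and midbrain genes, which lie outside the Hox domain, 2 had enough counts to test, of which 1 fell and none rose, and their summed CPM stayed between 2.96 and 5.89 in all libraries. Otx1, Otx2 and Six3 had 0 counts throughout, while Neurod6 (1082 counts over all libraries) and Lhx2 (149) were detected in every library. All 3 paralog 10 genes, which mark lumbar levels, were detected in every library as well.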

How the data were processed

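Per the labels' protocols, RNA of frozen lumbar cords was isolated with Trizol and RNeasy columns, and TruSeq libraries were made after poly-A selection. The submitters' processing notes list TopHat2 2.0.4, Cufflinks 2.0.2, bcl2fastq 1.8.4 and the mm9 build. How reads were counted, and whether by strand, was not given in the sources used here. The authors deposited a table of whole-number counts per gene and, per library, FPKM values per gene; the FPKM served only to compare levels between genes and as an alternative. Reads of overlapping genes may be counted for either, and counts from 14989026 to 20892530 per library set the precision. A p-value sets a group difference against the spread between libraries of a group. That spread holds differences between animals, given as biological replicates in the series' design, and counting noise.

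Counts were tested with edgeR 4.0.16 (R 4.3.3): TMM scaling, filterByExpr, 1 coefficient per group over all 16 libraries, quasi-likelihood F-tests, and Benjamini-Hochberg adjustment over 15426 genes. The group of each library came from the labels, and replicate numbers from the titles. The 39 members and the context lists were chosen with earlier results of these data known. Per-library values are given for the 3 genes with the highest FPKM in each cluster, the 6 with the smallest p per comparison and direction among those called, paralog 11, and Hoxa2 and Hoxd13, chosen after their values were seen. The text names, from each context list, the genes with the smallest p in a comparison. Of 231 list entries, 220 matched the table, 9 through a synonym. Alternatives were limma 3.58.1, DESeq2 1.42.0, other scalings and filters, log2 FPKM, fewer libraries, a replicate block and sex as a term. The edgeR script was tested on simulated data in which few genes changed, so that test does not cover changes as widespread as those here. A Hox gene and a cofactor gene are included in counts, sums and medians and are not reported singly here or drawn.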

Additional observations from a re-analysis of the deposited data

Results flagged for a closer look

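The interaction of genotype and transgene passed in 22 Hox genes, each positive, which means a smaller fall with the transgene, or a rise, with cKO than with cWT. In the Hoxa cluster the log2 values were 0.45 for Hoxa3, 0.64 for Hoxa4, 0.24 for Hoxa5, 0.81 for Hoxa6, 0.24 for Hoxa7, 0.56 for Hoxa9 and 0.42 for Hoxa10. In the Hoxb cluster they were 0.34 for Hoxb3, 0.48 for Hoxb5, 0.33 for Hoxb6, 0.39 for Hoxb8 and 0.25 for Hoxb9. In the Hoxc cluster they were 0.72 for Hoxc4, 0.52 for Hoxc5, 0.38 for Hoxc6, 0.63 for Hoxc8 and 0.68 for Hoxc10. In the Hoxd cluster they were 2.33 for Hoxd1, 0.54 for Hoxd3, 0.29 for Hoxd8, 0.50 for Hoxd9 and 0.50 for Hoxd10.

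Of these calls, 6 were lost when single libraries were left out (edgeR, adjusted p in brackets). Hoxd10 lost it without cWT_SOD1 replicate 2 (0.0596) or cKO_SOD1 replicate 1 (0.0559), and Hoxb9 without cWT_SOD1 replicate 3 (0.0517), cKO_SOD1 replicate 1 (0.0661) or cWT replicate 3 (0.0531). Hoxb3 lost it without cWT_SOD1 replicate 1 (0.0501), cKO_SOD1 replicate 1 (0.0615) or 2 (0.0533), cKO replicate 4 (0.0552) or cWT replicate 1 (0.0593). Hoxa3 kept the call only without cWT_SOD1 replicate 2, cKO_SOD1 replicate 4, cKO replicate 2 or cWT replicate 4, and otherwise reached 0.0561 to 0.1003. Hoxa7 kept it only without cWT_SOD1 replicate 4, cKO_SOD1 replicate 3 or 4, cKO replicate 1 or cWT replicate 2 or 3, and otherwise reached 0.0545 to 0.0938. Hoxc5 kept it only without cWT_SOD1 replicate 1 or 2 or cWT replicate 3, and otherwise reached 0.0513 to 0.101. Hoxd4 gained the call without cWT replicate 4 (0.44, 0.0403).

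A single library stood apart from the other 3 of its group in 7 of 128 sets of gene and group, where chance gives about 1 in 20. The 2 low ones in cWT_SOD1 were both in replicate 3, Hoxa6 at 3.68 CPM and Hoxb5 at 24.4 CPM. The 2 in cKO_SOD1 were both high in replicate 1, Hoxc6 at 20.6 CPM and Hoxd8 at 46.2 CPM. The other 3 were Hoxd1 at 0.665 CPM in cKO replicate 3, Hoxd4 at 21.0 CPM in cKO replicate 2 and Hoxa9 at 32.7 CPM in cWT replicate 1.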

How the results depend on the processing

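Without 1 library at a time, the number of Hox genes called was 23 to 25 for cWT_SOD1 against cWT, 0 to 1 for cKO_SOD1 against cKO, 0 for cKO against cWT, 21 to 24 for cKO_SOD1 against cWT_SOD1 and 16 to 21 for the interaction. Under the other alternatives the counts were 21 to 26, 0 to 2, 0, 21 to 23 and 17 to 22, in the same order. For cKO_SOD1 against cKO, limma-voom called 1 (Hoxd10, adjusted p = 0.0381), the 8 libraries alone 2 and DESeq2 0. Over all genes, limma-voom called 1217 higher and 1047 lower of 15426, and the 8 libraries alone 1235 and 1245 of 15058. DESeq2 called 852 higher and 516 lower of 19972. Of the calls, 21 of 25, 21 of 22 and 16 of 22 were kept under every alternative for cWT_SOD1 against cWT, cKO_SOD1 against cWT_SOD1 and the interaction. Hoxd11 turned sign between cKO and cWT without cKO replicate 3 (−0.030; range to 0.70) and in the interaction, at −0.030 with limma-voom, −0.16 on log2(FPKM + 0.1), −0.12 on log2(FPKM + 1), and −0.32 to 0.41 without single libraries, negative in 6 of 16. On log2(FPKM + 1), which understates low genes, Hoxd1 fell by 0.58 in cWT_SOD1 against cWT, where edgeR gave −2.10. Deviations of same-numbered replicates had correlations from −0.253 to 0.312 (24 pairs, 11 over 0.1). Only 14 of these pairs were of the same sex, and the correlations were not adjusted for sex. This check therefore cannot decide whether the numbers pair samples. A replicate block gave 25, 0, 0, 23 and 22 calls. Low counts, down to 4 per library, limit Hoxd1 and Hoxc11. Hoxd11 had 21 to 123 counts per library and is limited by its spread between libraries.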
